A study of Caenorhabditis elegans with 6 samples.

Results

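The genes described here encode enzymes that oxidise hydrogen sulfide (H2S) and cysteine sulfur, and sulfurtransferases, in Caenorhabditis elegans. They were chosen by name: sqrd-1, sqrd-2, ethe-1, suox-1, cdo-1, mpst-1, mpst-2, mpst-3, mpst-4 and mpst-7. Of these 10 genes, 9 had a probe set annotated to them alone, among 17138 genes named on the array, and sqrd-2 was not matched by name in the tables used and was not analysed here. The 9 genes were read on 10 probe sets, since mpst-3 has a pair.

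RNA came from whole N2 (Bristol) worms, the standard wild-type strain, given as L4 larvae, on 3 control arrays and 3 arrays of worms exposed to GYY4137, a compound that sets H2S free slowly. Worms of the exposed group met 100 uM GYY4137 for 48 h in liquid and then 12 h on agar plates, while controls were kept under standard laboratory conditions with no vehicle or mock treatment named. No liquid step and no culture time are named for controls. The donor therefore cannot be told apart from liquid culture, handling, culture time or age at harvest in any difference given here. The study asked how the transcriptome changes with the H2S donor, in a series whose title concerns lifespan. The labels name no transgene or mutation in either group.

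In mitochondria, sulfide:quinone oxidoreductase takes electrons from H2S, hands them to ubiquinone and leaves the sulfur as a persulfide. Persulfide dioxygenase turns that sulfur into sulfite, and sulfite oxidase turns sulfite into sulfate, so the chain both removes a poison of respiration and feeds electrons to it. Cysteine dioxygenase draws cysteine into cysteine sulfinate, and mercaptopyruvate sulfurtransferases move sulfur from a cysteine breakdown product onto acceptors, from which H2S can be released. In C. elegans, H2S is known to raise sqrd-1 through the hypoxia factor HIF-1, and cdo-1 is known to respond to the same factor.

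Of the 10 genes, 4 could be tested and none of those was called changed between the groups. Another 5 were too dim to test, and sqrd-2 was not analysed. The genes of the oxidation chain itself, sqrd-1, ethe-1 and suox-1, lay at low signal in both groups, below a log2 value of 4 on all 6 arrays. Under that value, the signal of sqrd-1 was lower on each GYY4137 array than on each control array, by a gap of 0.056. Groups separated in that direction for 3.24% of the probe sets too dim to test. The cysteine dioxygenase gene cdo-1 and the sulfurtransferase genes mpst-1, mpst-3 and mpst-4 were above 4 on all 6 arrays. Of these 4, limma called 0 raised and 0 lowered at an adjusted p under 0.05, against 1.50% of the 8053 tested probe sets, and 0 of the 4 reached an unadjusted p under 0.05, against 17.7% of the 8053. With only 4 genes, counts of 0 cannot be told apart from those shares. With limma's array weights 1 of the 4, cdo-1, was called, against 17.2% of the 8053 tested probe sets in that setting.

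**Figure D1:**
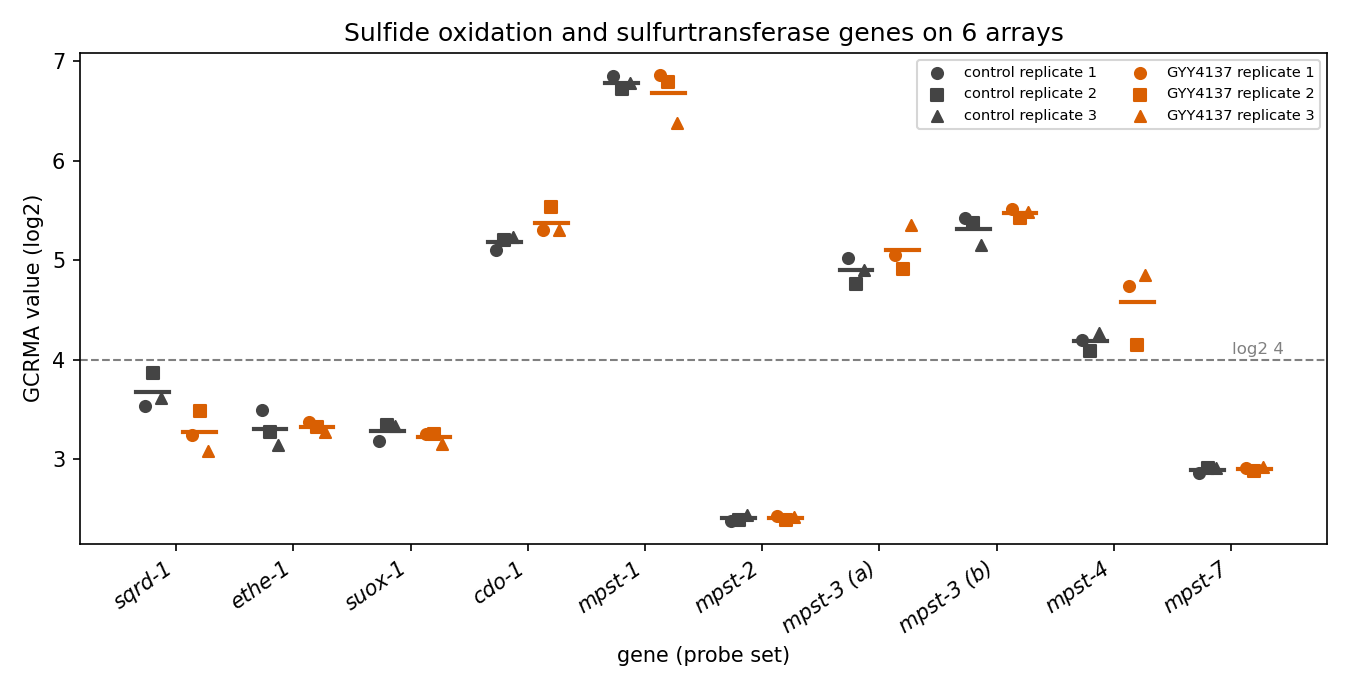
GCRMA values (log2, vertical axis) of the 10 probe sets of the 9 genes on each of the 6 arrays, with control arrays in grey, GYY4137 arrays in orange, a marker shape for each replicate and a short bar at each group mean of 3 arrays. The dashed line is the log2 value of 4. Genes sqrd-1, ethe-1, suox-1, mpst-2 and mpst-7 lie under it on every array, and mpst-4 lies just above it; mpst-3 (a) is the dimmer and (b) the brighter of the pair.

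Probe sets entered the test when at least 3 of the 6 arrays read more than 4, a floor below which a GCRMA value gives no firm level. The gene nearest above that floor was mpst-4, whose lowest value was 4.09. The nearest below it was sqrd-1, whose highest value was 3.87. On each array the median over all probe sets lay between 3.00 and 3.06. Under the floor, sqrd-1, ethe-1 and suox-1 were above that median on every array, at 3.08 to 3.87. Genes mpst-2 and mpst-7 were below it on every array, at 2.38 to 2.92.

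The quinone oxidoreductase gene sqrd-1 (F02H6.5, chromosome IV in the RefSeq table of WBcel235) catalyses the first step of sulfide oxidation. It read 3.54, 3.87 and 3.62 on control replicates 1, 2 and 3, and 3.25, 3.49 and 3.08 on GYY4137 replicates 1, 2 and 3. Each GYY4137 array was below each control array, by a gap of 0.056 between the nearest values. The group means were 3.68 ± 0.17 and 3.27 ± 0.20 (SD, n = 3), a difference of -0.40. The floor kept sqrd-1 out of the test. In a fit over all 22548 probe sets, without a floor, its difference had a standard error (SE) of 0.14 and a limma adjusted p of 0.422, where 0.146% of probe sets were called. Groups separated in that direction for 3.24% of the 14495 probe sets under the floor. The exact two-sided permutation p was 0.10, the smallest that 3 against 3 arrays allow. The difference was -0.19 with array weights and ran from -0.51 to -0.31 when an array was left out.

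The persulfide dioxygenase gene ethe-1 (C33A12.7, chromosome IV) read 3.50, 3.28 and 3.15 on the control arrays and 3.38, 3.33 and 3.28 on the GYY4137 arrays. The groups overlapped, with all GYY4137 values inside the control range. Its probe set can bind related transcripts. The sulfite oxidase gene suox-1 (H13N06.4, chromosome X) read 3.18, 3.35 and 3.34 on the control arrays and 3.26, 3.25 and 3.16 on the GYY4137 arrays. These overlapped too, with control replicate 1 below GYY4137 replicates 1 and 2. The differences were 0.02 ± 0.10 for ethe-1 and -0.07 ± 0.06 for suox-1 (SE of the fit without a floor, limma adjusted p = 0.971 and 0.818). No change in either transcript was detected, and at this low signal a change could be missed with these probe sets. Low signal is not evidence that the transcripts are absent.

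Cysteine dioxygenase, encoded by cdo-1 (F56F10.3, chromosome X), starts the breakdown of cysteine. Its values were 5.11, 5.20 and 5.23 on control replicates 1, 2 and 3, and 5.31, 5.53 and 5.30 on GYY4137 replicates 1, 2 and 3. The GYY4137 values all lay above the control values, with a gap of 0.067 to the highest control. Groups failed to overlap for 29.0% of the tested probe sets. The difference was 0.20 ± 0.11 (SE, 95% confidence interval -0.07 to 0.47, limma adjusted p = 0.379). That interval runs from 0.95-fold to 1.38-fold. Array weights were largest for GYY4137 replicate 2 (4.82) and control replicate 1 (2.42), the arrays with the highest and lowest cdo-1 values. The smallest weight was that of GYY4137 replicate 3 (0.14). Under array weights cdo-1 was at 0.34 with a limma adjusted p of 0.0259. Its limma adjusted p ranged from 0.276 to 0.633 under the 12 other alternatives. Array weights called 17.2% of all tested probe sets. Without GYY4137 replicate 2, the array on which cdo-1 was highest, the difference was 0.12.

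In worms cdo-1 is known to act in the epidermis. The 5 epidermal markers (dpy-7, rol-6, lin-26, nhr-23 and bli-1) were all above the floor, and 3 of 5 were higher with GYY4137. Their summed log2 level was 30.0 to 31.1 on control arrays and 30.2 to 31.6 on GYY4137 arrays. The part of epidermal content in the cdo-1 values was not tested. In RNA of whole animals, fewer cells of a type and less RNA per cell cannot be told apart.

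Among the sulfurtransferase genes, mpst-1 (D2023.5, chromosome V) read 6.85, 6.72 and 6.78 on the control arrays and 6.86, 6.79 and 6.38 on the GYY4137 arrays. GYY4137 replicate 2 lay inside the control range, replicate 1 just above it, and replicate 3 below every control. The difference was -0.11 ± 0.15 (95% confidence interval -0.45 to 0.24, limma adjusted p = 0.698), and it was 0.041 without GYY4137 replicate 3. The interval spans 0.730-fold to 1.18-fold.

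The gene mpst-3 (H12D21.7) lies on chromosome V with 1 protein-coding gene between it and mpst-2 (H12D21.4). The brighter mpst-3 probe set read 5.42, 5.37 and 5.15 on the control arrays and 5.52, 5.43 and 5.49 on the GYY4137 arrays. Its groups did not overlap, but control replicate 1 was only 0.0068 below GYY4137 replicate 2. The difference was 0.16 ± 0.12 (95% confidence interval -0.11 to 0.44, limma adjusted p = 0.451). On the dimmer mpst-3 probe set the values were 5.02, 4.76 and 4.91 against 5.06, 4.92 and 5.35, and there the groups overlapped. That probe set gave 0.21 ± 0.15, so both probe sets had a higher mean with GYY4137 and neither passed. The brighter was at 0.081 without control replicate 3 and 0.083 with array weights, and the dimmer at 0.089 without GYY4137 replicate 3. The mpst-2 probe set sat at 2.38 to 2.45 on all 6 arrays, with a difference of 0.0094, which is a dim reading and no level.

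The largest difference of the tested genes was that of mpst-4 (F11G11.9, chromosome II). It read 4.20, 4.09 and 4.27 on the control arrays and 4.74, 4.15 and 4.85 on the GYY4137 arrays. GYY4137 replicates 1 and 3 lay above every control, while replicate 2 fell inside the control range. The SD was 0.09 among controls and 0.38 among GYY4137 arrays. The difference of 0.40 ± 0.19 (1.32-fold, 95% confidence interval 0.966-fold to 1.79-fold) did not pass (limma adjusted p = 0.324, exact permutation p = 0.30). It was 0.61 without GYY4137 replicate 2, 0.26 without GYY4137 replicate 3 and 0.065 with array weights. The probe sets of mpst-4, mpst-1 and cdo-1 can all bind related transcripts.

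The gene mpst-7 (R186.6, chromosome V) was flat at 2.87 to 2.92, with a difference of 0.0074. Neighbouring sulfurtransferase genes mpst-5 and mpst-6, which lie next to each other on chromosome IV and were not on the list, share a probe set. It read 3.73, 3.33 and 3.21 on the control arrays and 3.72, 3.55 and 4.14 on the GYY4137 arrays, so it exceeded the floor on GYY4137 replicate 3 alone and was not tested. Its signal cannot be assigned to either gene.

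Over the 4 tested genes, 3 were above and 1 below control, with a median difference of 0.18, and groups did not overlap for 2 of the 4. Over all 6230 tested genes the median was -0.04, with 2706 above and 3524 below control, and groups did not overlap for 1759 (28.2%). All 4 confidence intervals included 0, and the highest of their upper ends, 1.79-fold for mpst-4, was under 2-fold. The intervals leave room for changes of smaller size in either direction.

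**Figure D2:**
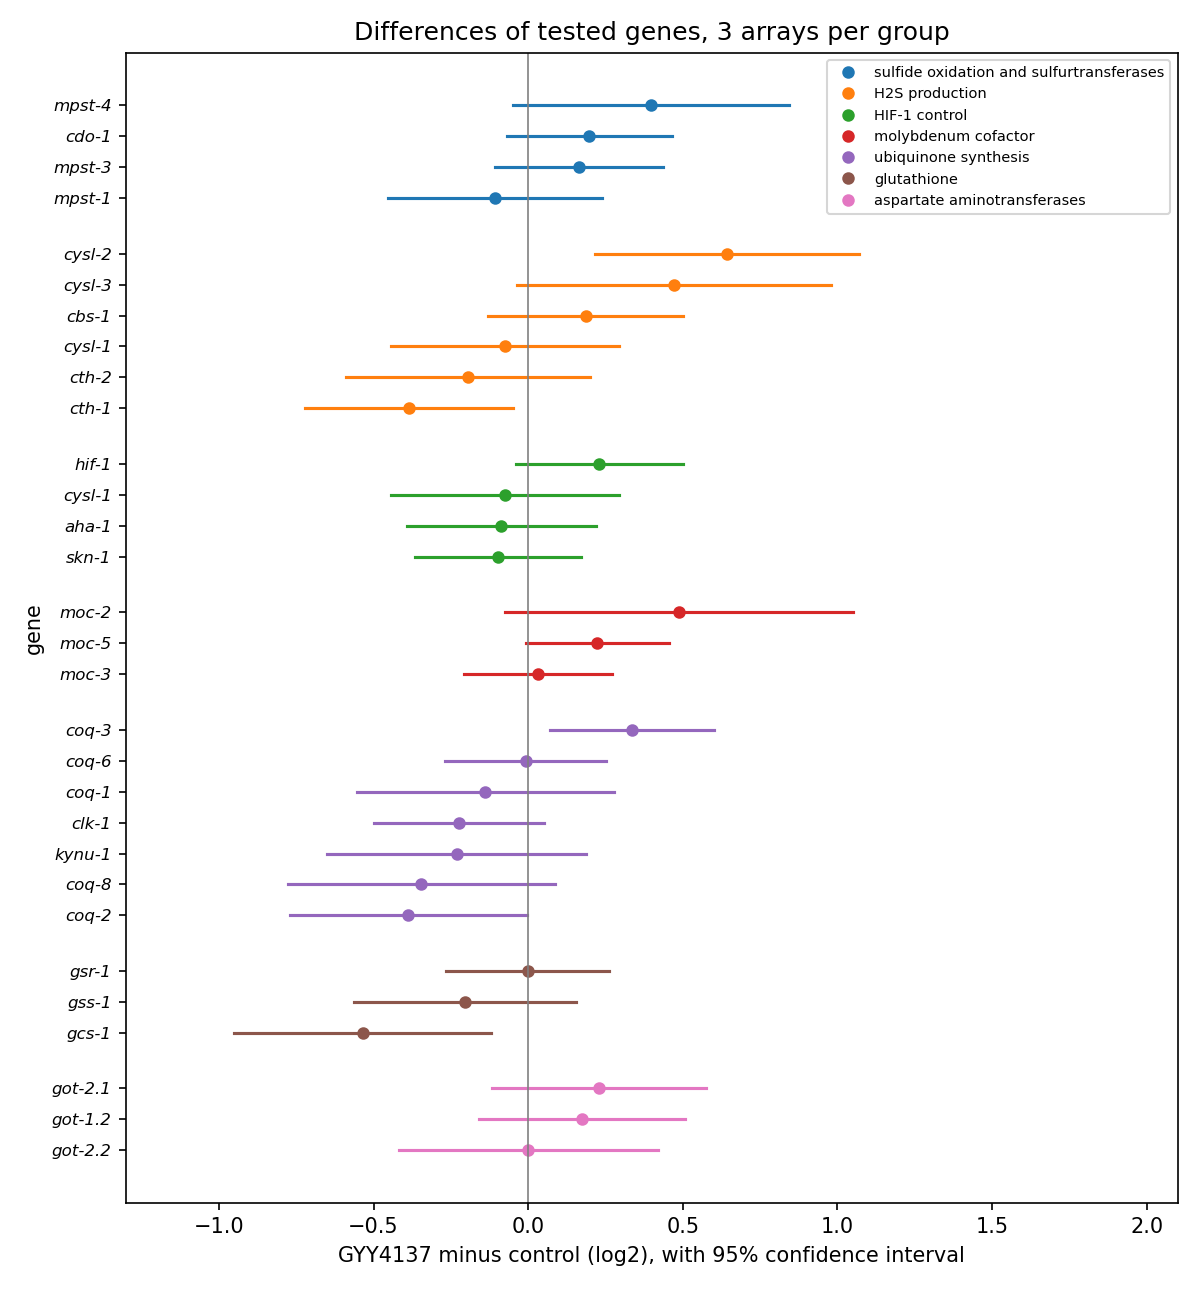
Difference of GYY4137 minus control (log2, horizontal axis) for each tested gene of the sulfide and sulfurtransferase set and of 6 lists of related genes, with points for the limma estimate and lines for the 95% confidence interval (3 arrays per group). All 4 lines of the first group cross 0, and the highest point in the plot is cysl-2 at 0.64.

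The genes around this chemistry were read from lists of the enzymes that make H2S, the factors that control sqrd-1 and cdo-1, the cofactor and electron partners, and the users of the products. In none of the 6 lists with tested genes did a gene pass the test with equally weighted arrays. For enzymes of H2S production and their cysteine synthase-like relatives, 0 of 6 tested genes rose and 0 fell (median 0.06), against 1.49% called of all 6230 genes. The cysteine synthase-like gene cysl-2, a known HIF-1 target in worms, read 4.99, 4.99 and 5.35 on the control arrays and 5.49, 5.69 and 6.08 on the GYY4137 arrays. Its groups did not overlap, as for 28.2% of all tested genes. The cysl-2 difference of 0.64 ± 0.18 (1.56-fold, limma adjusted p = 0.150) was the largest in these lists. It passed with array weights (0.62, limma adjusted p = 0.00407) and was at 0.48 without GYY4137 replicate 3. The cystathionine gamma-lyase gene cth-1 read 7.21, 7.08 and 7.52 against 6.80, 6.84 and 7.02, again without overlap, a difference of -0.39 ± 0.14 (limma adjusted p = 0.238). The relative cysl-3 differed by 0.47 ± 0.22 with overlapping groups, and by 0.26 without GYY4137 replicate 3 and 0.18 with array weights. The probe sets of cysl-2 and cysl-3 can bind related transcripts. So can those of hif-1, aha-1, skn-1, egl-9, moc-5, coq-3, gcs-1, gss-1, got-1.2 and got-2.1, named below.

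Among the controllers of sqrd-1 and cdo-1, 0 of 4 tested genes rose and 0 fell (median -0.08). The hif-1 transcript, which encodes the hypoxia factor, read 5.64, 5.64 and 5.86 on the control arrays and 5.93, 5.88 and 6.03 on the GYY4137 arrays. The groups did not overlap, narrowly, and the difference was 0.23 ± 0.12 (limma adjusted p = 0.336). HIF-1 is regulated chiefly through protein turnover, so its transcript is no reading of its activity. Its partner aha-1 and the stress factor gene skn-1 differed by -0.09 ± 0.13 and -0.10 ± 0.11, and skn-1 was at -0.014 without control replicate 2 and -0.063 with array weights. The genes egl-9, rhy-1 and vhl-1, whose products restrain HIF-1, were under the floor and were not tested. They differed by 0.06 for egl-9, with overlapping groups, by -0.20 for rhy-1 and by -0.24 for vhl-1. The latter pair were lower on each GYY4137 array than on each control array, for vhl-1 by a gap of only 0.00062, beside the 3.24% of probe sets under the floor that separated in that direction.

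Sulfite oxidase needs the molybdenum cofactor, and of its synthesis genes 0 of 3 tested passed in either direction (median 0.22). The gene moc-5 read 4.31, 4.28 and 4.28 on the control arrays and 4.56, 4.51 and 4.46 on the GYY4137 arrays, with no overlap (0.22 ± 0.10, limma adjusted p = 0.295). The others, moc-2 and moc-3, differed by 0.49 ± 0.24 and 0.03 ± 0.10, and moc-2 was at 0.22 without GYY4137 replicate 3. For the list of ubiquinone synthesis, which supplies the electron acceptor of sulfide oxidation, 0 of 7 tested genes rose and 0 fell. Of these, 6 of 7 were below control (median -0.22), beside 3524 of all 6230 tested genes. The count includes coq-8 at -0.35, coq-6 at only -0.0083 and coq-1 at -0.14. Without GYY4137 replicate 3, coq-1 was at 0.041. Also counted is the kynureninase gene kynu-1 (-0.23), whose product is not itself a ubiquinone synthesis enzyme. The methyltransferase gene coq-3 was higher by 0.34 ± 0.11 (limma adjusted p = 0.207) without overlap. The prenyltransferase gene coq-2 differed by -0.39 ± 0.16 and the hydroxylase gene clk-1 by -0.22 ± 0.12 (limma adjusted p = 0.279 and 0.352). The groups overlapped for coq-2 and did not for clk-1, which was lower with GYY4137.

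Glutathione accepts sulfur from the quinone oxidoreductase in mammals. Of its 3 genes 0 passed (median -0.20). The gene of the rate-limiting enzyme, gcs-1, read 5.99, 5.97 and 6.02 on the control arrays and 5.74, 5.57 and 5.06 on the GYY4137 arrays, lowest on replicate 3 (-0.53 ± 0.18, limma adjusted p = 0.206, and -0.34 without that array). As a mean over its probe sets gcs-1 was at -0.32. The synthetase gene gss-1 and the reductase gene gsr-1 differed by -0.20 ± 0.15 and -0.0016 ± 0.11. Without GYY4137 replicate 3 gss-1 was at -0.083, without GYY4137 replicate 1 at -0.32, and as a mean over its probe sets at -0.0051. Aspartate aminotransferases, which act on cysteine sulfinate in mammals, had 0 of 3 passing (median 0.17), and got-2.1, got-1.2 and got-2.2 differed by 0.23 ± 0.15, 0.17 ± 0.14 and 0.00074 ± 0.18. Without control replicate 3 got-2.1 was at 0.11, and got-1.2 was at 0.054 without GYY4137 replicate 3, 0.30 without GYY4137 replicate 2 and -0.033 with array weights. The listed genes moc-4 and coq-5 had no probe set of their own here and were not analysed.

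The 3 genes with the profile most like that of cdo-1, out of 3374 tested probe sets for 1 gene with a mean of at least 6, were Y54G2A.11, hrg-11.3 and acs-2, which encodes an acyl-CoA synthetase. Their Pearson correlations with cdo-1 over the 6 arrays were 0.974, 0.970 and 0.958. These are the highest of many and are given as a description of 6 arrays that share the group difference.

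**Figure D3:**
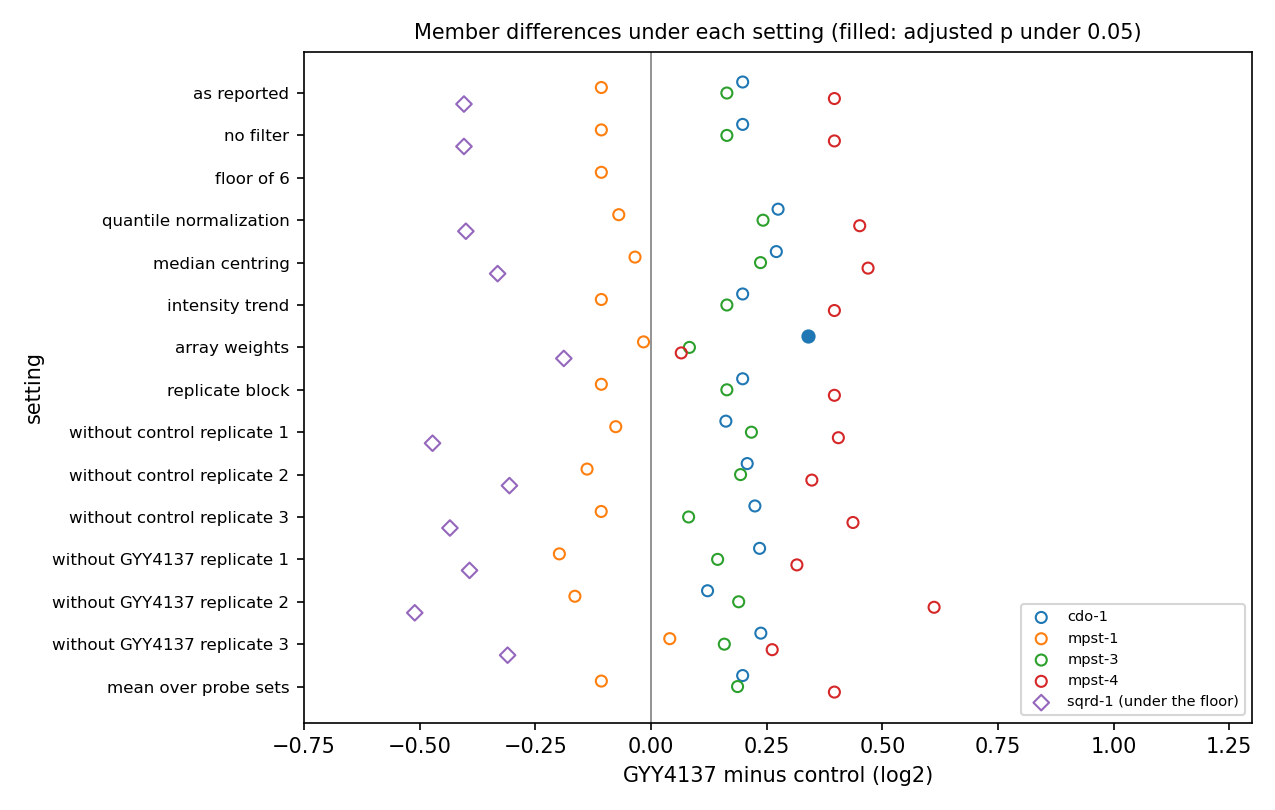
Difference of GYY4137 minus control (log2, horizontal axis) of cdo-1, mpst-1, mpst-3, mpst-4 and, under the floor, sqrd-1 for each way of processing the values (vertical axis), filled where the limma adjusted p was under 0.05. The only filled point is cdo-1 with array weights at 0.34, mpst-4 ranges from 0.065 to 0.61, mpst-1 crosses 0 without GYY4137 replicate 3, and sqrd-1 stays below 0 in the settings plotted. A floor of 6 leaves mpst-1 alone to test.

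Each array had between 7723 and 8050 probe sets above the floor. The array of GYY4137 replicate 3 lay apart from the others, with Pearson correlations of 0.940 to 0.965 with them across tested probe sets, against 0.979 to 0.993 among the others. Of the markers fixed for 9 tissues and cell types of whole worms, myo-5 of the pharynx, elt-2 and pgp-1 of the intestine and unc-104 and unc-31 of neurons were under the floor, and the rest were above it. The summed log2 level of 4 sperm markers was 27.2 to 27.7 on control and 28.6 to 29.9 on GYY4137 arrays, and that of 5 oocyte markers 42.6 to 43.0 and 40.2 to 41.2, so neither sum overlapped between groups. The sums of 4 germline markers (28.8 to 29.2 and 28.2 to 28.5) and of 4 pharyngeal muscle markers (21.0 to 22.0 and 20.3 to 20.7) did not overlap either. With GYY4137, 3 of 4 sperm markers had a higher mean, and so did 0 of 5 oocyte, 0 of 4 germline and 0 of 4 pharyngeal muscle markers. None of the tested markers in these 4 lists was called by limma. The sums of the intestine, body wall muscle, neuron, epidermis and yolk markers overlapped between groups. Taken singly, 29.0% of the tested probe sets had groups that did not overlap. All 4 yolk markers and all 5 oocyte and eggshell markers, which adults express, were above the floor although the labels give larvae. The part of stage, germline or pharyngeal content in the values of the sulfide genes was not tested. With no culture time named for controls, stage at harvest cannot be told apart from the donor.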

How the data were processed

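The log2 values deposited by the authors, 1 per probe set and array, were made with GCRMA, per the submitters' processing notes. That method adjusts for background using probe sequence, brings arrays to a common scale and merges probes. Its version and the genome build are not stated. The log2 scale was read from the range of the values, which were used as deposited.

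Of 22625 probe sets, 77 Affymetrix controls were left out. The platform's annotation gave 20810 probe sets 1 symbol (44 listed it more than once), 843 several and 972 none. Symbols were updated through the RefSeq table of WBcel235, where 20701 matched. Probe sets ending _s_at or _x_at can bind related transcripts. The brightest probe set on average stood for a gene.

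GYY4137 minus control was estimated with limma 3.58.1 (R 4.3.3; lmFit, eBayes without trend, two-sided) on the 8053 probe sets above 4 on at least 3 arrays, with Benjamini-Hochberg adjustment and a threshold of 0.05. A ± beside a difference is its standard error. The code was tested on simulated data. Members and lists were chosen with earlier results of these data known. The text names every member, the 3 genes of smallest p per related list and the 3 genes most correlated with cdo-1.

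Since no label says whether replicates were separate cultures, p-values cover only sample-to-sample spread that could be technical, and the number of arrays limits the precision. Same-numbered arrays deviated together with correlations of 0.11, -0.016 and 0.051, so numbers were not taken as pairs. Alternatives were no floor, a floor of 6, median centring, quantile normalization, array weights, an intensity trend, the replicate block, each array left out and the mean over probe sets.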

Additional observations from a re-analysis of the deposited data

How the results depend on the processing

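The count of called probe sets, 121, was 33 with no floor, 80 with a floor of 6, 1389 with array weights and 12 to 381 when 1 array was left out (381 without GYY4137 replicate 3, 12 without control replicate 1). The count of called sulfide and sulfurtransferase genes was 0 in every setting run except array weights, where it was 1 (cdo-1, 0.34). With the replicate number as a block, 73 probe sets were called, and none of the 4 tested sulfide and sulfurtransferase genes, or of the related genes refitted with it, changed its call; of the 3 control arrays, 1 correlated best with its own number. Leaving out arrays moved mpst-1 between -0.20 and 0.041 (the latter without GYY4137 replicate 3), so its direction is not settled.

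Related genes with differences near 0 also changed sign. For got-2.2 the values were -0.031 under quantile normalization, -0.18 with array weights and -0.20 to 0.10 with arrays left out. For gsr-1 they were 0.071 under median centring, 0.080 with array weights and -0.048 to 0.054 with arrays left out. For moc-3 they were -0.0075 with array weights, -0.040 as a mean over probe sets and -0.0080 to 0.053 with arrays left out. With array weights aha-1 was at 0.054 and got-1.2 at -0.033, and aha-1 ran from -0.16 to 0.030 with arrays left out. The cause was not tested. With array weights cysl-2, cth-1, coq-2 and gcs-1 passed as well, in a setting that called 17.2% of all tested probe sets. Low signal over background limits what can be said of sqrd-1, ethe-1, suox-1, mpst-2 and mpst-7. The planned comparison of the responses of sqrd-1 and sqrd-2 was not run, since sqrd-2 was not analysed.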
